A study of Arabidopsis thaliana with 12 samples.

Results

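The CYP707A genes of Arabidopsis thaliana encode the cytochrome P450 enzymes that hydroxylate abscisic acid (ABA) at its 8′ position, the main route by which plants inactivate this hormone. The family has 4 members, CYP707A1 (AT4G19230), CYP707A2 (AT2G29090), CYP707A3 (AT5G45340) and CYP707A4 (AT3G19270), and all 4 were followed here by their gene identifiers. All 4 were among the 22028 genes listed in at least 1 RNA library, and all 4 passed the filter on low values that left 21038 genes for testing.

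ABA restrains germination, closes stomata and holds buds and seeds dormant, and its level in a tissue reflects both synthesis and breakdown. The 8′-hydroxylated product rearranges to phaseic acid, which is less active than ABA. In Arabidopsis, CYP707A2 is best known for the fall in ABA when seeds take up water, CYP707A1 for seed development and the response to humidity, and CYP707A3 for rehydration after drought. ABA itself raises transcripts of the family, so the hydroxylases are part of a feedback on the hormone.

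The series compared seedlings of GFP:BRC1ind, whose transgene for GFP joined to the TCP transcription factor BRC1 (BRANCHED1) responds to estradiol, with seedlings of the knock-out brc1-2. Both genotypes carried the label 10 uM estradiol, seedlings were treated at an age of 10 days and collected after 5 hours, and each genotype gave 3 RNA-seq libraries. Anti-GFP chromatin immunoprecipitation (ChIP-seq, 3 libraries) and its Input (3 libraries) came from the estradiol-treated inducible line. BRC1 acts in axillary buds, and the question for these genes is whether their transcripts and the chromatin around them follow BRC1. Genotype and transgene differ together between the groups and cannot be told apart, no inducible seedlings without estradiol are among the samples, and whole seedlings were used. The labels give neither the BRC1 allele at the native locus of the inducible line nor the number of plants in a library. They also do not say that replicates were grown separately, so p-values measure the spread between these libraries, which may be technical.

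The targeted gene fitted the labels: BRC1 (AT3G18550) had 3370, 3421 and 3625 FPKM (fragments per kilobase of transcript and 1000000 mapped fragments) in the induced libraries and 1.34, 1.66 and 2.2 FPKM in the brc1-2 libraries. The libraries held between 33176994 and 53385759 fragments, as derived from the confidence bounds in the deposited tables. No pair of libraries agreed within counting error. Leaf, root, guard cell and phloem markers were listed in every library of both groups. The 4 leaf markers summed to 21674 to 25778 FPKM in the induced line and 19493 to 28415 FPKM in brc1-2, and 0 of 4 passed the limma test, adjusted or at an unadjusted p under 0.05. Of all tested genes, 16.2% were called in either direction (limma adjusted p under 0.05), and 8.86% were called lower in the induced line. The share of all tested genes at an unadjusted p under 0.05 was not computed, so counts at that level have no background. Among 4 root markers, EXPA7, a root hair expansin, fell, with 2.5 ± 0.638 FPKM in induced and 17.3 ± 6.44 FPKM in brc1-2 seedlings (SD, n = 3 each). The root list summed to 1324 to 1642 FPKM against 1534 to 1935 FPKM, and most of this sum was PYK10 in every library. TIP2-3, COBL9 and PYK10 had log2 changes of -0.78, -0.66 and -0.21 and did not pass the test (limma adjusted p = 0.392, 0.28 and 0.402). The 2 guard cell markers, MYB60 and FAMA, summed to 17.4 to 19.1 FPKM in the induced line and 22.1 to 24.3 FPKM in brc1-2, and both missed the threshold (limma adjusted p = 0.0587 and 0.0726), while both had an unadjusted p under 0.05. The phloem marker SUC2 had 47.5 to 55.4 FPKM and 55.7 to 74.6 FPKM in these groups and was not past the test. The 3 seed markers were not listed in the induced line and summed to at most 6.72 FPKM in brc1-2. MYB60 and SUC2 each had 1 deposited anti-GFP peak within 1000 bp, while FAMA and the leaf, root and seed markers had 0. At least 1 such peak was found for 16.3% of tested genes with a position. Fewer cells of a type, less RNA per cell and a change of the marker gene itself cannot be told apart in such libraries. The part of these marker shifts in the results below was not tested.

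CYP707A1 and CYP707A2 rose in the induced line, while CYP707A3 and CYP707A4 did not pass the test. CYP707A1 was the most abundant member in every library, and the induced level was 4.29 times that of brc1-2. CYP707A2 was 2.93 times as high as in brc1-2. Both calls are on the side on which 7.37% of all tested genes were called (limma adjusted p under 0.05, higher in the induced line), and 16.2% of tested genes were called in either direction.

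CYP707A1 lies on chromosome 4, 10521379 to 10523961 (build TAIR10, per the submitters' processing notes; the tables give no strand). Its summed FPKM was 39.1, 35.9 and 42.7 in induced libraries 1, 2 and 3, against 10.2, 7.21 and 9.97 in brc1-2 libraries 1, 2 and 3. Every induced library was above every brc1-2 library, which was so for either direction in 38.9% of tested genes. The lowest confidence bound that the authors gave for an induced library was 34.4 FPKM, and the highest bound of a brc1-2 library was 10.9 FPKM. The means were 39.2 ± 3.39 FPKM in induced and 9.13 ± 1.67 FPKM in brc1-2 seedlings (SD, n = 3 each). The log2 change of FPKM + 1 was 2.0 (SE 0.14, limma adjusted p = 0.00107), a scale that understates changes of low genes. Of all tested genes, 84 (0.399%) were called with a rise at least as large on this scale, and falls were not counted. The values rest on 2129 to 3933 fragments in the induced libraries and 420 to 919 in the brc1-2 libraries, and in each library 1 assembled piece ran over nearly the same stretch of the transcript. How reads shared by similar genes were counted is not given in the sources used here.

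CYP707A2 (chromosome 2, 12494851 to 12499723) had 11.5, 8.38 and 10.4 FPKM in induced libraries 1, 2 and 3, against 3.23, 3.25 and 3.83 FPKM in brc1-2 libraries 1, 2 and 3. The groups did not overlap, and the 3 brc1-2 libraries lay closer together than the 3 induced ones. The means were 10.1 ± 1.56 FPKM and 3.43 ± 0.342 FPKM in induced and brc1-2 seedlings (SD, n = 3 each). The fitted log2 change was 1.31, with an SE of 0.13 (limma adjusted p = 0.00302). With a pseudocount of 5 the log2 change was 0.83, still past the threshold (limma adjusted p = 0.00377). The induced libraries held 423 to 805 fragments of this gene and the brc1-2 libraries 156 to 241. In all 6 libraries the assembled piece began between positions 264 and 316 of the transcript, so no assembled piece covered the start of the transcript in either group.

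CYP707A3 (chromosome 5, 18368642 to 18370991) had 4.5, 3.56 and 4.26 FPKM in induced libraries 1, 2 and 3, and 3.87, 5.03 and 5.39 FPKM in brc1-2 libraries 1, 2 and 3. The groups overlapped, with brc1-2 library 1 below 2 of the 3 induced libraries. The means were 4.11 ± 0.487 FPKM and 4.76 ± 0.796 FPKM (SD, n = 3 each), and the log2 change of -0.17 (SE 0.15) missed the threshold with a limma adjusted p of 0.486. The gene was measured on 172 to 354 fragments per library.

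**Figure D1:**
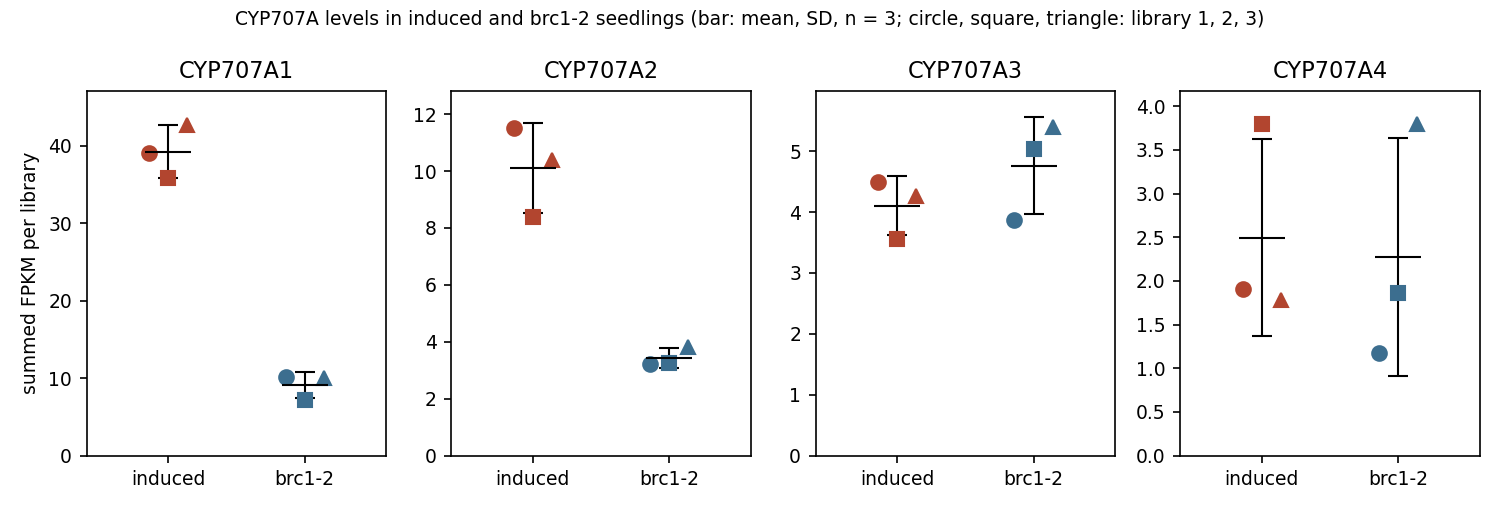
Summed FPKM of each CYP707A gene (y axis, from 0, with its own scale in each panel) in the 3 induced and 3 brc1-2 libraries. Bars give the mean and SD; the groups are apart for CYP707A1 (39.2 against 9.13 FPKM) and CYP707A2 (10.1 against 3.43 FPKM) and overlap for CYP707A3 and CYP707A4.

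CYP707A4 (chromosome 3, 6673727 to 6676520) had the lowest mean FPKM of the 4, and its comparison depends on how its assembled pieces are combined. Its summed FPKM was 1.91, 3.8 and 1.78 in induced libraries 1, 2 and 3, and 1.17, 1.86 and 3.8 in brc1-2 libraries 1, 2 and 3. The high library of each group is the one in which the transcript was assembled in 2 pieces, whose FPKM values were added. The log2 change of 0.13 (SE 0.37) missed the threshold with a limma adjusted p of 0.848. When the pieces were averaged with their length as weight, CYP707A4 had 1.91, 1.95 and 1.78 FPKM in induced libraries 1, 2 and 3, and 1.17, 1.86 and 1.56 FPKM in brc1-2 libraries 1, 2 and 3. The groups then overlapped only through brc1-2 library 2, and the log2 change was 0.19 (limma adjusted p = 0.438). In fragments per 1000000, a level that does not divide by the assembled length, CYP707A4 had 2.8, 2.31 and 2.63 in induced libraries 1, 2 and 3, against 1.65, 1.09 and 1.51 in brc1-2 libraries 1, 2 and 3. On this scale the groups did not overlap, the ratio of the means was 1.82, and voom in limma gave a log2 change of 0.82 past the threshold (limma adjusted p = 0.0338). By voom, 9.23% of tested genes were called higher. These fragments numbered 78 to 139 in the induced libraries and 36 to 88 in the brc1-2 libraries, and in brc1-2 library 2 the only assembled piece covered 791 bp, against 1657 bp in induced library 1. Without induced library 2 or without brc1-2 library 1 the log2 change of summed FPKM was -0.13 in both cases, so no direction was fixed on that scale.

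**Figure D2:**
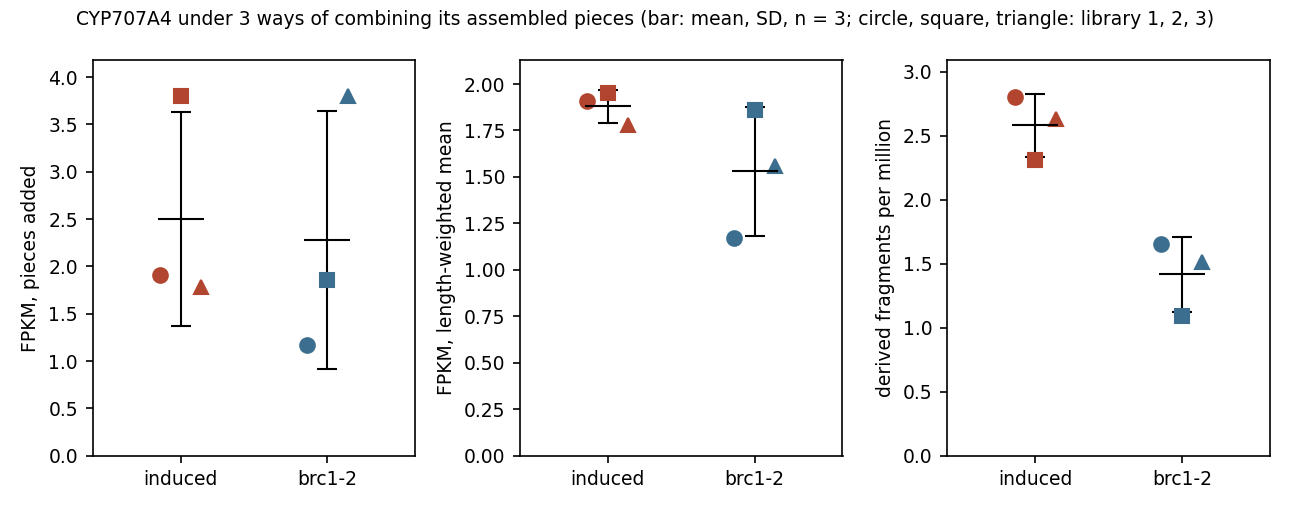
CYP707A4 per library as FPKM with pieces added, as FPKM averaged over pieces by length, and as derived fragments per 1000000 (y axes, from 0). Bars give the mean and SD of 3 libraries; the groups overlap in the first and second panels and lie apart in the third, at 2.31 to 2.8 for induced and 1.09 to 1.65 for brc1-2.

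By mean FPKM, a level per length, the order in the induced line was CYP707A1, CYP707A2, CYP707A3 and CYP707A4. With pieces added, the ranges of the last pair overlapped there, at 3.56 to 4.5 FPKM for CYP707A3 and 1.78 to 3.8 FPKM for CYP707A4. The other neighbours were apart. With length-weighted pieces CYP707A4 had 1.78 to 1.95 FPKM in the induced line, below every CYP707A3 value there. In brc1-2 the order was CYP707A1, CYP707A3, CYP707A2 and CYP707A4. With pieces added, CYP707A2 and CYP707A4 overlapped there, at 3.23 to 3.83 FPKM and 1.17 to 3.8 FPKM. CYP707A3 began just above both, at 3.87 FPKM. With length-weighted pieces CYP707A4 had 1.17 to 1.86 FPKM in brc1-2, below every CYP707A2 value there. CYP707A2 stood above CYP707A3 in all 3 induced libraries and below it in all 3 brc1-2 libraries.

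The FPKM of the 4 genes added together was 57.0, 51.7 and 59.1 in induced libraries 1, 2 and 3, against 18.5, 17.4 and 23.0 in brc1-2 libraries 1, 2 and 3. The mean was 2.85 times that of brc1-2, as a description without a test. CYP707A4 entered this sum with its pieces added. CYP707A1 made up 68.6 to 72.3% of this sum in the induced libraries and 41.6 to 55.3% in the brc1-2 libraries. The share of CYP707A2 was 17.9% ± 1.98 in the induced line and 17.6% ± 1.04 in brc1-2 (SD, n = 3 each). The share of CYP707A3 was 6.9 to 7.9% in the induced libraries and 20.9 to 29.0% in the brc1-2 libraries, at nearly the same FPKM.

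**Figure D3:**
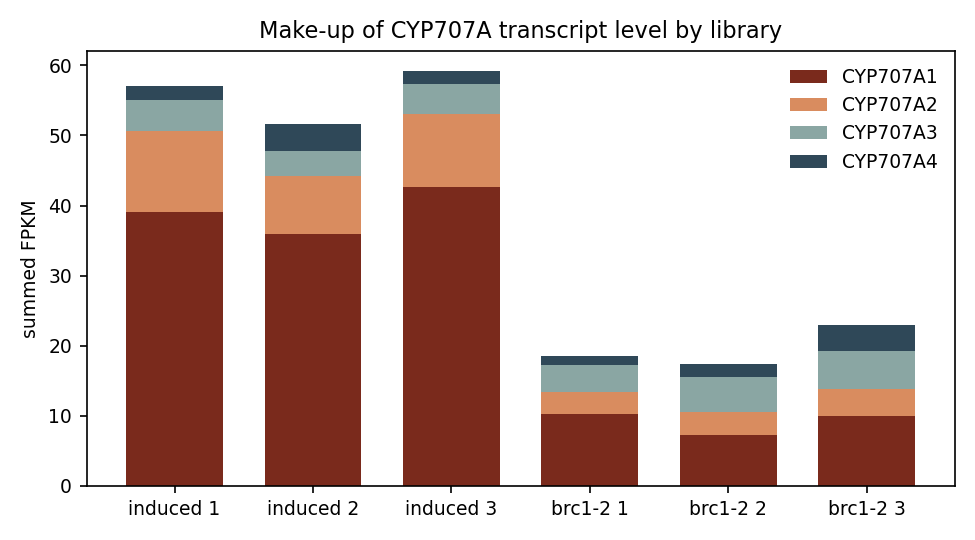
Summed FPKM (y axis) of the 4 CYP707A genes stacked for each RNA library (x axis), without error bars because each bar is 1 library. The induced bars reach 51.7 to 59.1 FPKM and the brc1-2 bars 17.4 to 23.0 FPKM, and the difference lies mostly in the CYP707A1 and CYP707A2 segments.

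Whether members responded differently was tested on the log2 ratio of FPKM + 1 of 2 members within each library, for all 6 pairs. Two-sided exact permutation tests of 3 against 3 libraries cannot go below p = 0.1, so none could pass 0.05. The log2 ratio of CYP707A1 to CYP707A3 was 2.98 ± 0.1 in the induced line and 0.81 ± 0.38 in brc1-2 (SD, n = 3 each), a difference in response of 2.17. That of CYP707A2 to CYP707A3 was 1.11 ± 0.07 in the induced line and -0.37 ± 0.15 in brc1-2, a difference of 1.48. The log2 ratio of CYP707A1 to CYP707A2 was 1.87 ± 0.16 in the induced line and 1.18 ± 0.23 in brc1-2, a difference of 0.69. In these 3 pairs, and for CYP707A1 and CYP707A2 against CYP707A4, the ratios of the groups did not overlap (exact permutation p = 0.1 each, 0.12 adjusted over the 6 pairs). With a pseudocount of 0.1, CYP707A2 against CYP707A4 had an exact permutation p of 0.2. With the pieces added, the ratios of CYP707A3 to CYP707A4 overlapped between the groups, at a difference of -0.3 (exact permutation p = 0.5). For this pair too the way of combining pieces mattered. The difference was -0.36 with length-weighted pieces, -0.42 with the largest piece only and -0.91 in derived fragments per 1000000, each at the smallest p the design allows (exact permutation p = 0.1).

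Peaks of the GFP-BRC1 fusion lay close to all 4 members, including the pair whose transcripts did not pass the test. The deposited list holds 4227 peaks, and a peak was counted for a gene when its midpoint was inside the annotated locus or within 1000 bp of it. By this rule CYP707A2 had 3 peaks, CYP707A1 had 2, and CYP707A3 and CYP707A4 had 1 each. Of the 32883 annotated genes, 12.0% had at least 1 such peak, 1.28% at least 2 and 0.134% (44 genes) at least 3. For tested genes with a position these shares were 16.3%, 1.82% and 0.184%. For those of them called higher in the induced line, the shares were 44.9%, 8.20% and 1.17%. Longer loci have more room for midpoints, and the CYP707A2 locus spans 4873 bp, against 2350 to 2794 bp for the other members. The peak list is a single intersection of 2 libraries without scores, so no error can be given for it.

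At CYP707A1, a peak of 594 bp (10520934 to 10521527 on chromosome 4) straddled the lower-coordinate edge of the locus, with its midpoint 149 bp outside it. It was wider than 87.2% of all peaks, whose median width was 398 bp. A second peak of 429 bp (10523274 to 10523702) was inside the locus, its midpoint 473 bp from the upper edge. Another peak, of 306 bp (10518385 to 10518690), lay 2842 bp below the locus, so CYP707A1 had 3 peaks within 3000 bp. At least 3 within that distance were found for 0.967% of annotated genes and 1.39% of tested genes with a position. Of the latter that were called higher in the induced line, 5.92% had at least 3. No other annotated gene was within 1000 bp of any of these midpoints, and the annotated genes next to CYP707A1 were 13257 bp below and 3554 bp above it.

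At CYP707A2, a peak of 630 bp (12493915 to 12494544 on chromosome 2) lay below the locus, with its midpoint 622 bp from the edge, and was wider than 89.4% of all peaks. Another pair of peaks, 423 bp (12495755 to 12496177) and 433 bp (12497254 to 12497686) wide, were inside the locus. At least 2 midpoints inside a locus were found in 22 annotated genes (0.0669%). Of tested genes with a position that were called higher in the induced line, 0.195% had at least 2. The peak below the locus was also within 1000 bp of FTSH3 (AT2G29080), a gene for a mitochondrial FtsH protease. FTSH3 had 48.1 ± 1.43 FPKM in induced and 40.9 ± 1.78 FPKM in brc1-2 seedlings (SD, n = 3 each), with a log2 change of 0.23 that missed the threshold at a limma adjusted p of 0.0551.

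At CYP707A3, the 1 peak (18371009 to 18371456 on chromosome 5, 448 bp) lay beyond the upper edge, with its midpoint 241 bp outside the locus. CYP707A3 is the only member whose nearest peak outside the locus was on the upper-coordinate side. At CYP707A4, a peak of 392 bp (6673260 to 6673651 on chromosome 3) lay below the locus, with its midpoint 272 bp from the edge, and was the one peak within 1000 bp of a member that was narrower than the median. A second peak lay 2262 bp above CYP707A4 and within 1000 bp of AT3G19274, a gene not listed in any RNA library. At least 1 peak within 3000 bp was found for 21.4% of annotated genes. No peak was inside the locus of CYP707A3 or CYP707A4, while CYP707A1 had 1 and CYP707A2 had 2. A midpoint inside the locus was found for 1.79% of annotated genes, 2.43% of tested genes with a position and 8.40% of those called higher. With 4 genes this difference in peak position and number is a description and was not tested against the transcript changes.

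**Figure D4:**
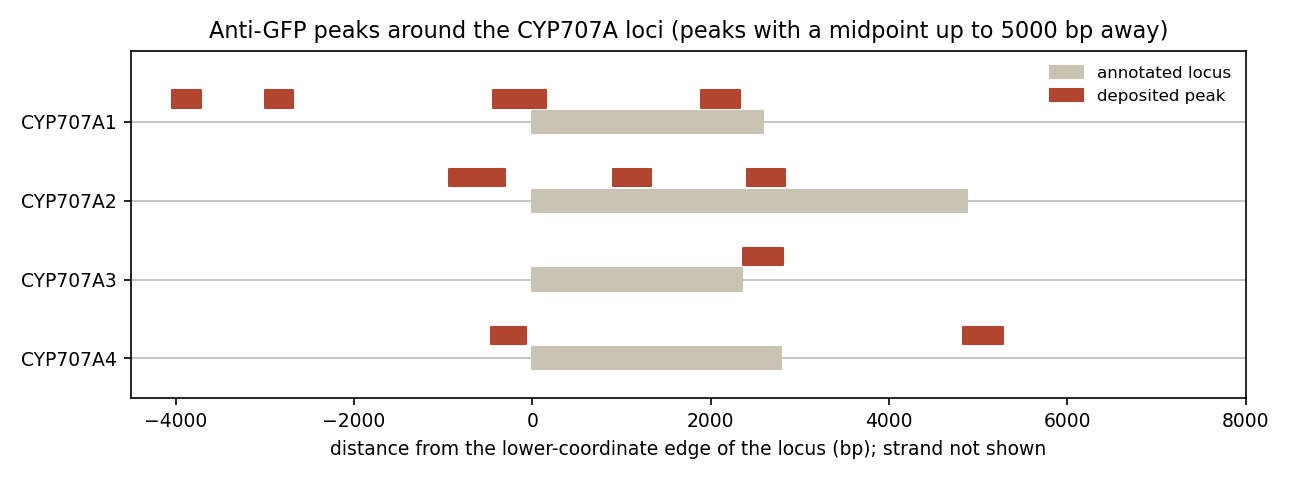
Deposited anti-GFP peaks (upper bars) around the annotated locus (lower bars) of each CYP707A gene, drawn to scale as distance in bp from the lower-coordinate edge of the locus. Loci are not turned by strand; CYP707A1 and CYP707A2 have peaks inside the locus, and CYP707A3 and CYP707A4 have peaks only outside it.

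Among the other genes of ABA metabolism, none that passed the test had a log2 change of FPKM + 1 as large as that of CYP707A1 or CYP707A2. By voom on derived fragments this did not hold, with log2 changes of 2.04 for NCED3 and 1.63 for CYP707A2. Of the 10 genes listed for ABA synthesis, 6 were tested, 2 rose, none fell and 4 did not pass. Over all tested genes, 7.37% were called higher in the induced line and 8.86% lower. The median log2 change of the 6 was 0.33, against 0.04 over all tested genes. ABA2 (AT1G52340), the dehydrogenase that makes abscisic aldehyde, had 24.3 ± 0.485 FPKM in induced and 16.3 ± 1.35 FPKM in brc1-2 seedlings (SD, n = 3 each). Its log2 change was 0.55 (limma adjusted p = 0.00674). NCED3 (AT3G14440), a dioxygenase that cleaves the carotenoid precursor, had 4.24, 4.04 and 5.35 FPKM in induced libraries 1, 2 and 3, against 2.05, 1.22 and 2.45 FPKM in brc1-2 libraries 1, 2 and 3. These groups did not overlap, and its log2 change was 0.95 (limma adjusted p = 0.032). That call was lost without any 1 library other than brc1-2 library 3 (log2 change 0.76 to 1.01, limma adjusted p of 0.0593 to 0.104). AAO3 (AT2G27150), the abscisic aldehyde oxidase, had 14.3 ± 2.01 FPKM and 9.2 ± 1.6 FPKM in induced and brc1-2 seedlings and missed the threshold (limma adjusted p = 0.0515). NCED2, NCED5, NCED6 and NCED9 were not listed in any library. Of the 10 genes 3 had a peak within 1000 bp, namely ZEP, NCED3 and NCED9, and NCED3 had 3 peaks within 3000 bp, as many as CYP707A1.

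The list for other removal of ABA or its products holds 5 genes: 3 UGT71B glucosyltransferases, UGT71C5 and AT4G27250, listed as a phaseic acid reductase. Of these 4 were tested, none rose, 1 fell and 3 did not pass, with a median log2 change of -0.28. Of all tested genes, 8.86% were called lower in the induced line. The fall was that of UGT71B7 (AT3G21790), which had 6.12, 6.86 and 6.17 FPKM in induced libraries 1, 2 and 3, against 11.0, 12.4 and 12.4 FPKM in brc1-2 libraries 1, 2 and 3. Its log2 change was -0.81 (SE 0.08, limma adjusted p = 0.00335), and its reads may be shared with the adjoining and similar UGT71B6 and UGT71B8. UGT71C5 (AT1G07240), which forms the glucose ester of ABA, had 16.2, 18.8 and 19.1 FPKM in induced libraries 1, 2 and 3, against 20.8, 22.6 and 27.7 FPKM in brc1-2 libraries 1, 2 and 3. These groups were apart, and the change missed the threshold (limma adjusted p = 0.102). None of these 5 genes had a peak within 1000 bp. The 2 glucosidases that free ABA from this ester, BGLU18 and BGLU33, were tested and did not pass (limma adjusted p = 0.777 and 0.398). At an unadjusted p under 0.05 the count was also 0. Of all tested genes, 16.2% were called in either direction (limma adjusted p under 0.05).

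Among 6 ABA transporters, all tested, 2 rose, none fell and 4 did not pass, with a median log2 change of 0.42. The shares over all tested genes were 7.37% called higher and 8.86% called lower. NPF4.6 (AT1G69850), an importer of ABA, had 51.2 ± 0.836 FPKM in induced and 38.3 ± 1.08 FPKM in brc1-2 seedlings (SD, n = 3 each). Its log2 change was 0.41 (limma adjusted p = 0.00621), and 2 peaks lay within 1000 bp of it. ABCG25 (AT1G71960), an exporter, had 10.1 ± 0.2 FPKM and 6.59 ± 0.941 FPKM in these groups (log2 change 0.55, limma adjusted p = 0.0208). The call of ABCG25 was lost without any 1 of the induced libraries or brc1-2 library 2 (limma adjusted p of 0.0663 to 0.0782).

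The CYP707A enzymes belong to the CYP85 clan of P450s, which includes enzymes of gibberellin and brassinosteroid metabolism. Of 14 listed relatives 12 were tested, 1 rose, 3 fell and 8 did not pass, and the median log2 change was -0.32. Beside these counts, 7.37% of all tested genes were called higher and 8.86% lower. CYP87A2 (AT1G12740) had 3.3, 2.79 and 3.06 FPKM in induced libraries 1, 2 and 3, against 13.7, 12.9 and 12.8 FPKM in brc1-2 libraries 1, 2 and 3 (log2 change -1.8, SE 0.09, limma adjusted p = 0.000353). CYP85A2 (AT3G30180), the brassinosteroid oxidase that makes brassinolide, had 7.0 ± 0.744 FPKM in induced and 11.2 ± 0.406 FPKM in brc1-2 seedlings (SD, n = 3 each). Its log2 change was -0.62 (limma adjusted p = 0.00866). CYP90B1 (AT3G50660), the brassinosteroid 22-hydroxylase also named DWF4, rose (log2 change 0.52, limma adjusted p = 0.0197) and had 2 peaks within 1000 bp. Its call was lost without any 1 of the induced libraries or brc1-2 library 2 (log2 change 0.44 to 0.56, limma adjusted p of 0.0546 to 0.0582). CYP716A2 (AT5G36140) fell by 1.78 on the log2 scale (limma adjusted p = 0.0242), was not listed in induced library 1, and lost its call without brc1-2 library 1 or 2 (limma adjusted p = 0.0744 and 0.0842). It was also short of the threshold in 4 other alternatives (limma adjusted p of 0.064 to 0.475), and reads may be shared with its close copy CYP716A1. None of the 12 tested relatives had a log2 change as high as that of CYP707A2. A peak within 1000 bp was found for all 4 CYP707A genes and 4 of the 14 relatives. The share was 12.0% of annotated genes and 16.3% of tested genes with a position. These counts are descriptions and were not tested against each other.

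**Figure D5:**
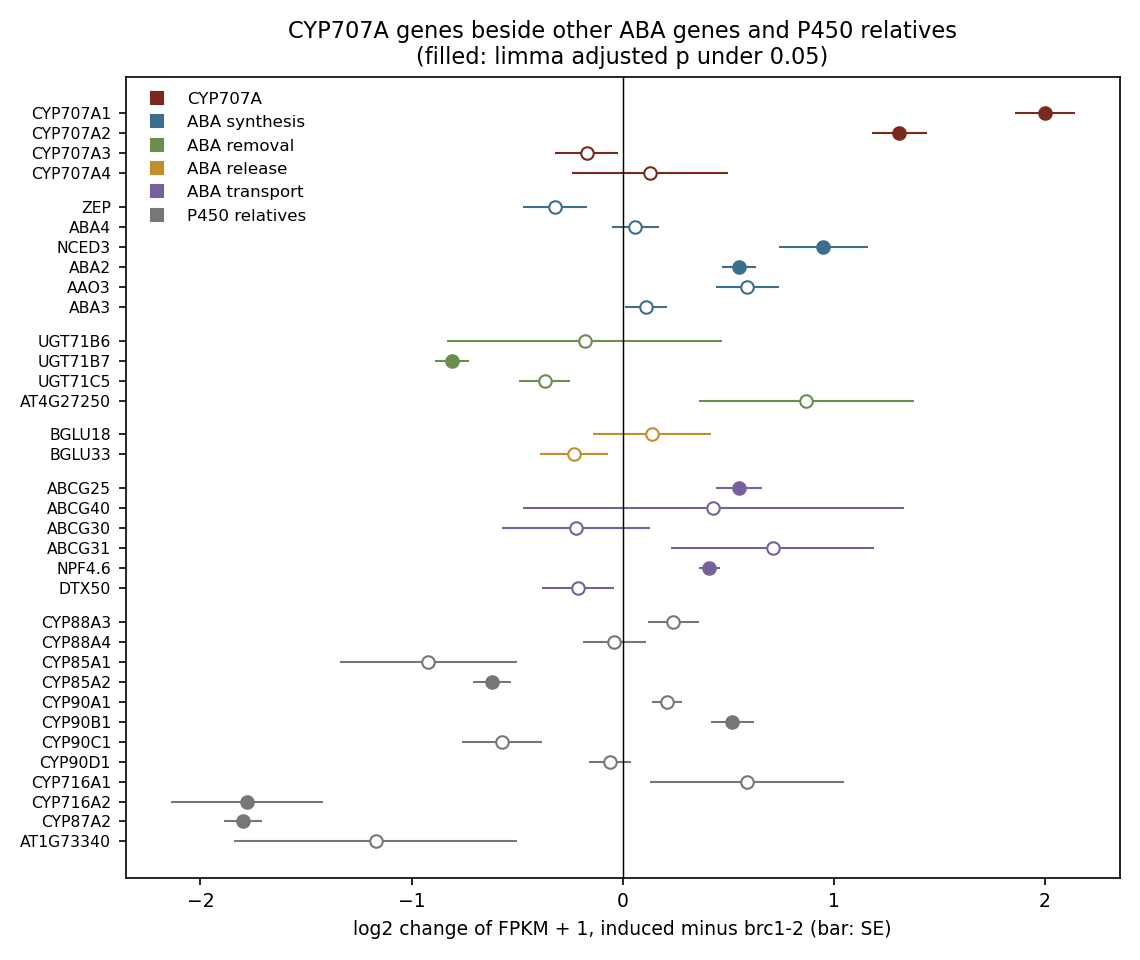
Log2 change of FPKM + 1, induced minus brc1-2, with its SE (x axis) for the CYP707A genes and the tested genes of the ABA lists and the P450 relatives (rows). Filled points had a limma adjusted p under 0.05; CYP707A1 at 2.0 and CYP707A2 at 1.31 are the highest points, and CYP87A2 at -1.8 the lowest.

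The genes whose pattern over the 6 RNA libraries was most like that of a member were found by the Euclidean distance between mean-centred log2(FPKM + 1) values, over 19908 other tested genes listed in every library. Nearest to CYP707A1 were CYP81D11 (AT3G28740), a P450 of another clan (distance 0.179), SRK2F (AT4G40010), a SnRK2 protein kinase (0.239), and FMOGS-OX4 (AT1G62570), a flavin monooxygenase of glucosinolate metabolism (0.253). CYP81D11 had 106, 115 and 127 FPKM in induced libraries 1, 2 and 3, against 30.3, 22.5 and 31.7 FPKM in brc1-2 libraries 1, 2 and 3. SRK2F had 17.3 ± 0.894 FPKM in induced and 3.6 ± 0.761 FPKM in brc1-2 seedlings (SD, n = 3 each). Each of these 3 genes had at least 1 peak within 1000 bp, as had 44.9% of the tested genes with a position that were called higher in the induced line. Nearest to CYP707A2 were MBD13 (AT5G52230; distance 0.201), named for its methyl-CpG-binding domain, COR15A (AT2G42540; 0.24), which encodes a chloroplast protein induced by cold and ABA, and STY17 (AT4G35780; 0.246), a protein kinase, with log2 changes of 1.27, 1.37 and 1.16. COR15A had no peak within 1000 bp, while MBD13 had 1 and STY17 had 2. Nearest to CYP707A3 were AT4G26095, NADK2 and GWD3 (distances 0.0807, 0.0995 and 0.105), none past the test. For CYP707A4 the nearest were AT1G12300, PCMP-E5 and AT1G49700 (0.239, 0.35 and 0.351), likewise not past the test. AT1G12300 and PCMP-E5, like CYP707A4, were assembled in 2 pieces in induced library 2 and brc1-2 library 3 and in 1 piece elsewhere, so adding pieces raises the same 2 libraries for all 3 genes. AT1G49700 was assembled in 1 piece in every library.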

How the data were processed

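The members, lists and alternatives were chosen with earlier results of these data known. Per the file headers, the authors deposited 1 Cufflinks table per RNA library, with FPKM values and confidence bounds for assembled pieces on contigs named by transcript. The annotated chromosome rows were all at 0 and served for positions only. The submitters' processing notes name Bowtie, TopHat, Cuffdiff, Bowtie2, MACS2 and build TAIR10, without roles or versions. The deposited peak list holds positions (a unit of bp, with no score) and, by its name, the intersection of ChIP libraries 1 and 2. No data of ChIP library 3 or of Input were used here.

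FPKM of all pieces of a gene was added. Genes reaching an FPKM of 1 in 3 or more libraries were tested on log2(FPKM + 1) with limma 3.58.1 (eBayes with trend, no block) in R 4.3.3, adjusted after Benjamini and Hochberg over all tested genes, with a threshold of 0.05. Fragments were derived from the confidence bounds, taken as 2 standard errors wide on each side; they cover counting error only. Fits were tested on simulated data. Python 3.11.15 and scipy 1.17.1 were used. Named genes are BRC1, the 4 members, list genes past the threshold with up to 3 others, the 3 nearest profiles of each member and genes beside its peaks. Markers with their values, and the derived fragments per 1000000 (chosen after seeing the data), were given in addition.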

Additional observations from a re-analysis of the deposited data

How the results depend on the processing

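The rises of CYP707A1 and CYP707A2 kept their direction and stayed past 0.05 in all 16 alternatives run for each, with log2 changes of 1.65 to 2.12 and 0.83 to 1.63. CYP707A3 stayed short of the threshold in its 15 (-0.29 to -0.09). CYP707A4 passed it by voom on derived fragments (0.82), which does not divide by assembled length, and turned to -0.13 without induced library 2 and without brc1-2 library 1. CYP707A3 and CYP707A4 failed the filter at an FPKM of at least 5. Leaving out 1 library gave log2 changes of 1.86 to 2.08 for CYP707A1, 1.22 to 1.43 for CYP707A2, -0.13 to 0.44 for CYP707A4 and 10.22 to 10.44 for BRC1, and 1609 to 2827 genes called in place of 3413 (716 to 1354 higher, 893 to 1473 lower). The lowest counts were 1609, 1738, 2006 and 2134 without induced libraries 1, 2 and 3 and brc1-2 library 2; fewer samples are part of each such fit. In these fits 1 to 2 synthesis genes, 1 to 2 transporters and 2 to 5 P450 relatives were called. With all libraries, 3 synthesis genes were called with length-weighted pieces, with the largest piece only and by voom. By voom 3 transporters were called. The counts of synthesis genes and transporters thus depend on how pieces are combined or modelled. Over the fits without 1 library, the difference in response between CYP707A3 and CYP707A4 ranged from -0.53 to 0.03, the last without induced library 2 (the cause was not tested). It was -0.91 in derived fragments per 1000000. The numbers of peaks near the family were 7 within 1000 bp, 9 within 3000 bp, 6 within 500 bp, 7 by any overlap and 6 among peaks at or above the median width.

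The labels do not say whether same-numbered libraries belong together. Their deviations correlated at 0.0824, 0.0597 and 0.193, and those of differently numbered libraries at -0.223 to 0.145. With the replicate block 2989 genes were called, CYP707A1 and CYP707A2 kept their calls (limma adjusted p = 0.00626 and 0.013), and no call of a gene named here was lost. Of 347 values for 22 further genes, 323 kept direction and side of the threshold, 19 lost a call and 5 turned. AT1G12300 ranged from -0.2 to 0.4 over the fits without 1 library, with -0.2, -0.1 and -0.03 without induced library 2 and brc1-2 libraries 1 and 2. PCMP-E5 (-0.07 to 0.47) and AT1G49700 (-0.04 to 0.37) turned without induced library 2. CYP716A2 also lost its call with a pseudocount of 0.1, with length-weighted pieces, with the largest piece only and by voom. Counting error is widest among the members for CYP707A4, which had 36 fragments in brc1-2 library 2.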

Other observations

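One more peak near CYP707A1, 323 bp wide (10517342 to 10517664 on chromosome 4), lay 3876 bp below the locus and 1034 bp from the next peak, in a stretch with no annotated gene within 1000 bp. The peaks at CYP707A2 were spaced 1737 and 1504 bp apart, midpoint to midpoint. Among tested genes called higher in the induced line, 8.20% had at least 2 peaks within 1000 bp, against 1.82% of all tested genes with a position, and CYP707A1 and CYP707A2 are among them.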
